A study of Mus musculus with 6 samples.

Results

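The 36 genes described here encode proteins that specify, assemble or drive motile cilia. They were taken from a list of motile cilia genes of non-sensory respiratory epithelium and matched by symbol, and all 36 were found among the 35450 mouse genes with a quantified transcript, Dnai1 and Dnai2 under the symbols Dnaic1 and Dnaic2. Poly(A) RNA had been sequenced from the vomeronasal organ of 3 Cnpy1+/+ mice (wild type, WT) and 3 Cnpy1-/- littermates (knockout, KO), all at postnatal day 60. Both organs of a mouse went into 1 library after the outer bone was removed, and each genotype had 2 males and 1 female. The females were WT replicate 2 and KO replicate 3, and the 6 libraries held 60969508 to 71670766 estimated reads. The labels give no further allele or treatment, and the strain and the way the knockout allele was made are not given in the sources used here. The libraries are of whole organs, so fewer cells of a type and less RNA per cell cannot be told apart.

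Motile cilia beat to move fluid and mucus over an epithelium. Their core, the axoneme, is a ring of doublet microtubules around a central pair, and it is driven by dynein motors on the doublets, which radial spokes and the nexin-dynein links regulate. Multiciliated cells are specified by Mcidas and switch on the axoneme genes through the forkhead factor Foxj1 and the RFX factors. The RFX factors bind a promoter motif called the X-box. In the vomeronasal organ the sensory neurons carry microvilli, and motile cilia belong to the non-sensory epithelium on the other side of the lumen. Cnpy1 encodes an endoplasmic reticulum protein of the Canopy family, and the comparison asks how its loss changes gene expression in the organ.

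The promoters are shown first, because the X-box is a sequence feature known for cilia genes and was not used to list them. RefSeq promoters (GRCm38.p6, 250 bases before to 50 after the start site) were given for 29 of the 36 genes. The full X-box was searched as GTTGC, then 3 to 5 bases, then GNAAC, on both strands, and 10 of the 29 genes (34.5%) held it, against 449 of 27025 genes in the promoter table (1.66%). The 11 matches, of which 2 lie in Tekt4, began 0 to 116 bases before the start site. They are printed 5′ to 3′ on the gene's strand, with the matched bases in capitals and 10 bases on either side. On the plus strand the windows are chr11:114727376-114727408 for Dnai2, chr17:25471580-25471613 and chr17:25471544-25471576 for Tekt4, chr16:44394762-44394795 for Cfap44, chr1:69826857-69826890 for Spag16, chr4:41569765-41569797 for Dnai1 and chr8:110266946-110266979 for Hydin. On the minus strand they are chr3:106001494-106001527 for Pifo, chr17:56831100-56831134 for Rfx2, chr11:66168611-66168643 for Dnah9 and chr4:126325695-126325727 for Tekt2.
Dnai2: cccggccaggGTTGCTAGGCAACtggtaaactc
Dnai1: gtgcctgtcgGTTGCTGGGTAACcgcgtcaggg
Dnah9: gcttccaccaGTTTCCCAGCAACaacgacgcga
Hydin: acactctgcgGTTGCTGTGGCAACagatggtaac
Spag16: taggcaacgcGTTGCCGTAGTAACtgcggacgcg
Tekt2: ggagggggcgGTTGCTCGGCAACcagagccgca
Tekt4, nearer: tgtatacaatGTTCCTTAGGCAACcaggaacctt
Tekt4, farther: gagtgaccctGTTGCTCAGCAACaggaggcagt
Cfap44: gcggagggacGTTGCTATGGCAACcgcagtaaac
Pifo: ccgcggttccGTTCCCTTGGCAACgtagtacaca
Rfx2: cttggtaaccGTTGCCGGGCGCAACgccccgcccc
The matched genes span the outer dynein arm (Dnai1, Dnai2 and Dnah9), the central pair (Hydin and Spag16), the tektins inside the doublets (Tekt2 and Tekt4), the axonemal protein gene Cfap44, the ciliary protein gene Pifo and Rfx2, itself an RFX factor.

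A shorter form of the X-box, GTTGCNA on either strand, was present in 13 of the 29 promoters (44.8%) and in 11.9% of all genes in the table, and 5 genes held both forms, which can overlap. A forkhead motif, TGTTTAC or TGTTTGC on either strand, stood in 6 of 29 (20.7%) and in 9.47% of all. Other motile cilia genes, a wider list of 106 of which 86 had a promoter, held the full X-box in 24.4% and the short form in 61.6%. Among 38 genes of intraflagellar transport and primary cilia, which build cilia of every kind, the shares were 13.2% and 36.8%. A match is a string of letters, not a bound site, and 9 of the 29 promoters held none of these motifs.

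**Figure D1:**
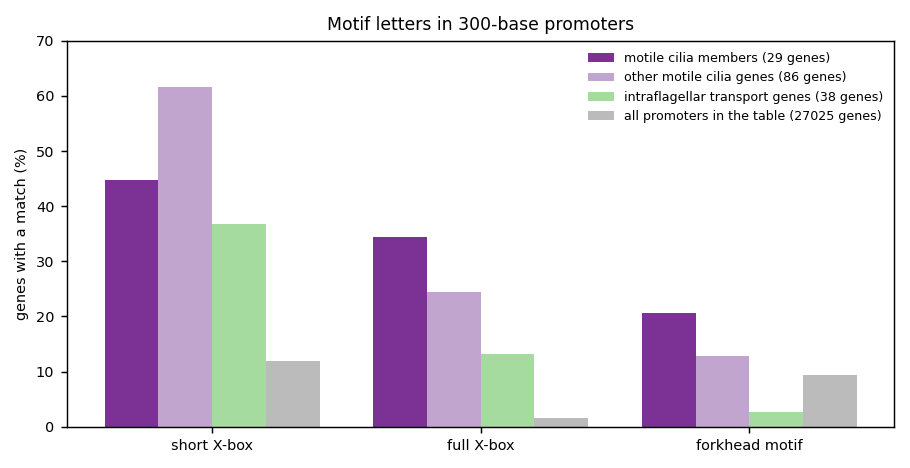
Percent of genes (y axis) whose RefSeq promoter holds a short X-box, a full X-box or a forkhead motif, for the 29 motile cilia genes with a promoter, 86 other motile cilia genes, 38 intraflagellar transport genes and all 27025 genes in the table. The full X-box stands in 34.5% of the motile cilia genes and in 1.66% of all genes.

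All 36 genes were detected in every library. Levels between genes are compared in TPM, the deposited abundance per transcript length. Means over the 6 libraries ran from 0.812 TPM for Mcidas to 119 TPM for Tppp3, with a median of 7.51 TPM, and estimated reads per gene and library ran from 63 to 6635. Tppp3, a tubulin-binding protein of the TPPP family, and Rsph9, a component of the radial spoke head, together held 37.8% of the summed TPM of the 36 genes. Tppp3 had 112, 147 and 132 TPM in WT replicates 1 to 3 and 109, 90.6 and 124 TPM in the knockouts. Rsph9 had 113, 126 and 118 TPM in WT and 98.8, 86.1 and 111 TPM in KO. The genotypes overlapped for Tppp3, and for Rsph9 every knockout lay below every wild type. Both are short transcripts, and Rsph9 overlaps Mrps18a (31.9 TPM) on the opposite strand.

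Next came Capsl (mean 47.7 TPM), which encodes an EF-hand calcium-binding protein, Rsph1 (43.1 TPM), another radial spoke head component, Foxj1 (40.7 TPM) and Pifo (26.0 TPM). These 6 genes were the only ones above 20 TPM. Foxj1 had 32.5, 39.8 and 43.1 TPM in WT and 43.8, 31.3 and 53.9 TPM in KO, so its lowest and highest libraries were both knockouts. The multiciliation genes lay far lower, with Ccno, which encodes a cyclin needed to multiply centrioles, at a mean of 3.12 TPM and Mcidas at 0.812 TPM. Rfx3 stood at 9.79 TPM and Rfx2 at 7.77 TPM.

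Within the axoneme, the outer-arm intermediate chain gene Dnai2 (19.2 TPM) stood above its partner Dnai1 (4.33 TPM), and the 3 heavy chain genes followed the order Dnah5 (6.18 TPM), Dnah9 (5.03 TPM) and Dnah11 (1.83 TPM). Across the libraries Dnah5 and Dnah9 overlapped, with 5.43 to 6.995 and 4.33 to 6.18 TPM, and Dnah11 lay below both with 1.497 to 2.36 TPM. Genes for assembly of the dynein arms in the cytoplasm lay at 7.25 (Dnaaf3), 7.09 (Zmynd10) and 3.50 TPM (Dnaaf1). The ruler genes Ccdc40 and Ccdc39, whose proteins set the spacing of arms along the doublet, had 12.4 and 8.15 TPM, and the nexin-dynein genes Drc1 and Drc7 had 11.7 and 7.22 TPM. The central pair genes Hydin (1.33 TPM) and Spag17 (1.04 TPM) were among the 4 genes below 2 TPM, with Dnah11 and Mcidas, while Spag16 had 4.61 TPM. Genes for proteins inside the doublet microtubules ranged from Tekt1 (15.8 TPM), Cfap52 (11.5 TPM) and Cfap53 (8.92 TPM) to Tekt4 (5.71 TPM) and Tekt2 (2.92 TPM).

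The remaining genes included Ccdc113 (13.2 TPM), which encodes a coiled-coil protein of cilia, Ak7 (12.7 TPM), an adenylate kinase of cilia, and the axonemal protein genes Cfap44 (4.71 TPM), Cfap43 (4.70 TPM) and Cfap65 (4.03 TPM). Rsph4a, the third radial spoke head gene of the list, had 10.2 TPM. In this order of means, neighbouring genes overlapped across libraries at all but 3 of 35 steps, namely between Rsph9 and Capsl, Foxj1 and Pifo, and Pifo and Dnai2. Tppp3 and Rsph9, with ranges of 90.6 to 147 and 86.1 to 126 TPM, did not differ beyond their spread.

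**Figure D2:**
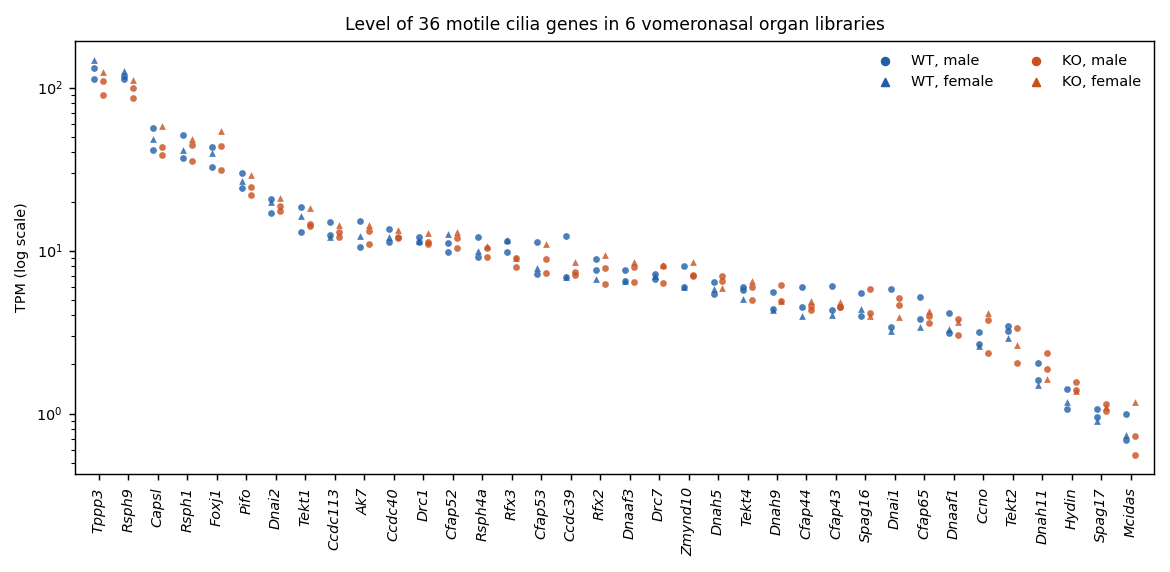
TPM (y axis, log scale) of each of the 36 motile cilia genes (x axis, ordered by mean) in the 6 libraries, each point 1 mouse, circles for males and triangles for females. Tppp3 and Rsph9 stand near 100 TPM, Mcidas lies near 1, and the WT and KO points overlap for 34 of the 36 genes.

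Summed over the 36 genes, the level was 554, 635 and 678 TPM in WT replicates 1 to 3 and 585, 499 and 660 TPM in KO replicates 1 to 3. The genotypes overlapped, with 622 ± 63.0 TPM (SD, n = 3) in WT and 581 ± 80.7 TPM (SD, n = 3) in KO, a log2 ratio of -0.10. TPM is relative to all transcripts, and 9 gland and lipocalin genes, led by Obp2a, took 27.6% (WT replicate 3) to 41.3% (KO replicate 2) of it. The library with the largest gland share also had the lowest summed TPM of the motile cilia genes. Relative to transcripts outside the gland list, the sums were 878, 916 and 937 TPM in WT and 908, 850 and 937 TPM in KO, with a log2 ratio of -0.02. On reads scaled by TMM (a factor per library from a trimmed mean of gene ratios), the ratio turned to 0.06, with sums of 849 ± 43.3 CPM (reads relative to the scaled library total, SD, n = 3) in WT and 884 ± 24.5 CPM (SD, n = 3) in KO. Without Rsph9 and Tppp3 the TPM ratio was 0.01, and without KO replicate 2 it was 0.00055. On none of these scales did the genotypes separate beyond the spread between mice.

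No motile cilia gene passed the genotype test. In edgeR's quasi-likelihood fit, with p-values adjusted by Benjamini-Hochberg over all 16679 genes tested, 0 of 36 had an adjusted p under 0.05, against 0.761% of all genes, and the adjusted p-values of the 36 ran from 0.129 to 0.990. At an unadjusted p under 0.05, 3 were higher in KO, where the share of all genes was 4.55%, and 3 were lower, where it was 5.99%. Of the alternative fits, DESeq2's Wald test called 1 gene, Rfx3 (2.78% of the 36, against 2.51% of all genes with an adjusted p in that test), and the others called 0. The 95% interval of the log2 fold change lay within 1.5-fold either way for 33 of 36 genes and within 2-fold for all 36. The lowest bound was -0.49 and the highest 0.69.

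The fitted log2 fold changes (KO over WT) lay between -0.22 and 0.31, with a median of 0.11 for the 36 genes and 0.01 for all genes tested. Of the 36, 32 values were above 0 and 4 below, whereas over all genes 8717 were above and 7962 below. On TMM-scaled CPM, every knockout lay above every wild type in 5 genes (Dnai2, Cfap52, Dnaaf3, Drc7 and Spag17) and below in 3 (Rfx3, Rsph9 and Tppp3). The shares of all genes on this scale were 7.22% and 8.95%. On TPM the genotypes were apart in 2 of the 36, Rfx3 and Rsph9, both lower in the knockouts, and 0 were apart and higher. On that scale 8.33% of all genes were apart and lower, and 1.58% were apart and higher. Under other scalings or subsets of the libraries the sign of 16 of the 36 changed, and the number above 0 was 22 with males only, 28 without scaling factors, 20 with limma on log2 TPM and 26 to 33 with 1 library left out.

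**Figure D3:**
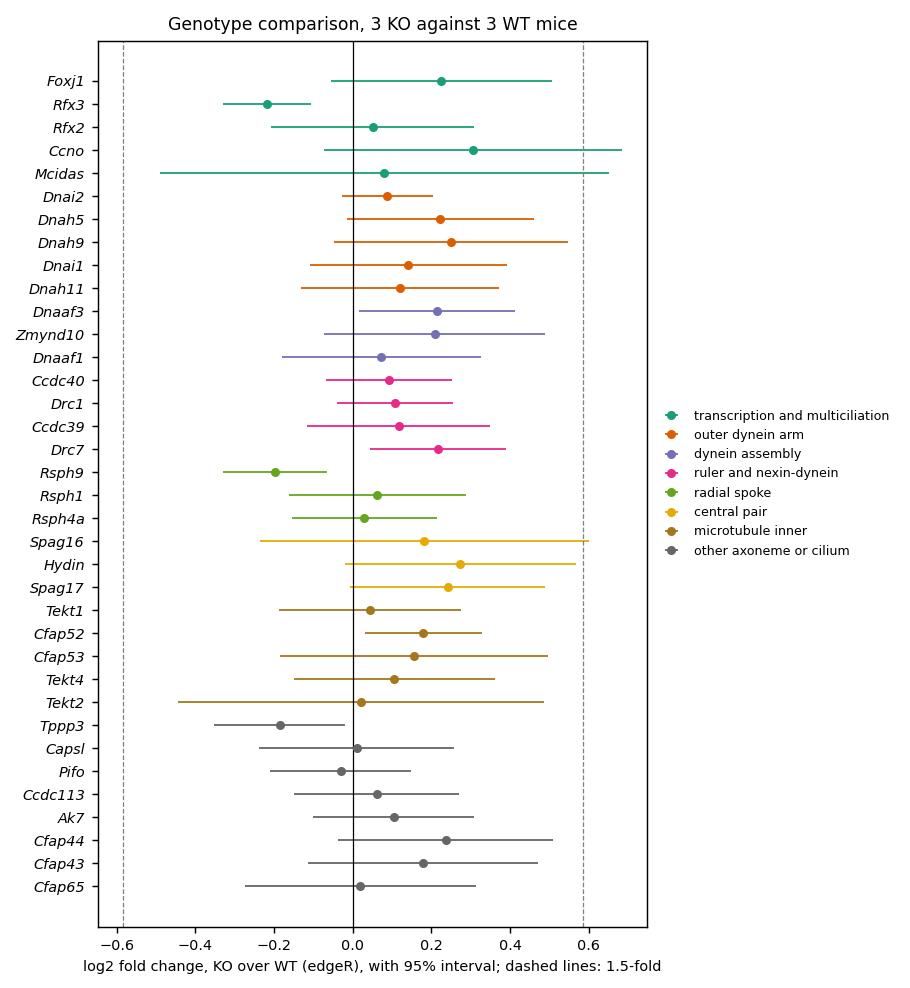
Log2 fold change, KO over WT (x axis), of the 36 motile cilia genes, grouped and coloured by role, with 95% intervals from edgeR, 3 mice per genotype. Dashed lines mark 1.5-fold. Rfx3, Rsph9 and Tppp3 lie left of 0 with intervals that do not reach it, and Cfap52, Drc7 and Dnaaf3 lie right of it likewise. No gene passed the adjusted test.

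Among the regulators, Rfx3 (ENSMUSG00000040929.17, chromosome 19, positions 27761721 to 28011166, minus strand, GRCm38) came closest to the threshold. It had 67.3, 69.8 and 69.8 CPM in WT and 60.5, 60.2 and 57.2 CPM in KO, all TMM-scaled, and the groups did not overlap. Its log2 fold change was -0.22 (SE 0.05), with edgeR adjusted p = 0.129 and, by DESeq2's Wald test, adjusted p = 0.0258. The related factor Rfx2 had a log2 fold change of 0.05. Foxj1 (chromosome 11, positions 116330704 to 116335399, minus strand) had 65.1, 71.5 and 76.1 CPM in WT and 85.3, 67.3 and 96.1 CPM in KO, and 1 knockout lay inside the wild-type range. Its log2 fold change was 0.23 with an SE of 0.12 (adjusted p = 0.579 by edgeR). Ccno had the highest value of the list, 0.31 with an SE of 0.17 (adjusted p = 0.577 by edgeR), with 3.82, 3.28 and 3.99 CPM in WT and 4.996, 3.55 and 5.16 CPM in KO. Mcidas, at 63 to 126 reads per library, had the widest interval, from -0.49 to 0.65. Its coefficient of variation over the libraries was 21.7%, and counting error alone would give 10.6%.

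For the outer dynein arm all 5 values were above 0 and none passed the test. Dnah5 had 69.7, 66.8 and 72.3 CPM in WT and 86.9, 89.5 and 67.3 CPM in KO. KO replicate 3 lay within the wild-type range and the other knockouts above it, which gave a log2 fold change of 0.22 with an SE of 0.10 (adjusted p = 0.503 by edgeR). In Dnah9, too, KO replicate 3 lay within the wild-type range and the other knockouts above it, with 31.8, 27.2 and 33.7 CPM in WT and 41.6, 38.8 and 29.8 CPM in KO. Dnai2 had the smallest spread of the 36 genes, a coefficient of variation of 4.26% over the 6 libraries, and a log2 fold change of 0.09 with no overlap between groups on TMM-scaled CPM.

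Dnaaf3, an assembly factor, had 10.9, 9.80 and 11.3 CPM in WT and 12.9, 11.4 and 12.6 CPM in KO, a log2 fold change of 0.21 (unadjusted p = 0.0382, edgeR adjusted p = 0.438). Drc7 had 14.04, 12.8 and 13.6 CPM in WT and 16.6, 14.7 and 15.7 CPM in KO, a log2 fold change of 0.22 (unadjusted p = 0.0196, edgeR adjusted p = 0.352). Cfap52, a protein inside the doublet, had 15.1, 16.8 and 15.8 CPM in WT and 18.1, 17.9 and 18.1 CPM in KO, a log2 fold change of 0.18 (unadjusted p = 0.0243, edgeR adjusted p = 0.377). In each of these 3 genes every knockout lay above every wild type on TMM-scaled CPM, and on TPM the genotypes overlapped.

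Of the 3 radial spoke head genes, Rsph9 (ENSMUSG00000023966.8, chromosome 17, positions 46122035 to 46144216, minus strand) had 69.9, 70.3 and 64.8 CPM in WT and 60.1, 56.6 and 61.9 CPM in KO, a log2 fold change of -0.20 (unadjusted p = 0.0083, edgeR adjusted p = 0.251). Rsph1 and Rsph4a had log2 fold changes of 0.06 and 0.03, smaller than their SE of 0.098 and 0.080, and both were below 0 with males only (-0.022 and -0.0054) and with limma on log2 TPM (-0.0076 and -0.042). Tppp3 (ENSMUSG00000014846.12, chromosome 8, positions 105467493 to 105471526, minus strand) had 85.6, 97.5 and 89.1 CPM in WT and 80.9, 73.8 and 84.6 CPM in KO, a log2 fold change of -0.19 (unadjusted p = 0.0324, edgeR adjusted p = 0.411). The 3 central pair genes had log2 fold changes of 0.18 (Spag16), 0.24 (Spag17) and 0.27 (Hydin), each short of the threshold. Pifo was the fourth gene below 0, at -0.03.

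In the wider list of motile cilia genes, edgeR called Cfap300, which was lower in the knockouts, and no other gene. Of 103 genes found, 98 were tested, so the edgeR call is 1.02% of them, against 0.761% of all genes. DESeq2's Wald test called 3, of which 1 was lower and 2 were higher in KO, or 3.09% of the 97 with an adjusted p in that test, against 2.51% of all genes. At an unadjusted p under 0.05 by edgeR, 7 of the 98 were higher and 3 lower, where the shares of all genes were 4.55% and 5.99%, and the median log2 fold change was 0.06. Cfap300 (chromosome 9, positions 8021672 to 8042823, GRCm38) encodes a factor for assembly of dynein arms. It had 172, 194 and 196 CPM in WT and 122, 128 and 137 CPM in KO, with no overlap, a log2 fold change of -0.54 with an SE of 0.07 (adjusted p = 0.0146 by edgeR). At a mean of 148 TPM it also stood above every gene of the list of 36. The call was lost without WT replicate 2 (adjusted p = 0.0996), WT replicate 3 (0.0695), KO replicate 1 (0.0650) or KO replicate 2 (0.0651), with males only (0.0889), without scaling factors (0.0557) and on log2 TPM with limma (0.152). The log2 fold change stayed between -0.61 and -0.50 in these fits. The other abundant genes of the wider list were Dynlrb2, a dynein light chain gene (115 TPM, log2 fold change 0.00), and Cfap20, a gene for a doublet protein (78.4 TPM, log2 fold change -0.10). Of 44 genes of intraflagellar transport and primary cilia 0 were called by edgeR, against 0.761% of all genes, and 2 were higher and 3 lower at an unadjusted p under 0.05, against 4.55% and 5.99%. Their median log2 fold change was -0.06, with 10 values above 0 and 34 below.

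The axonemal dynein heavy chains, the large motor subunits of the arms, were singled out after their values had been seen. The 12 that were tested, 3 of the 36 genes and 9 of the wider list, all had log2 fold changes above 0, from 0.03 (Dnah8) to 0.51 (Dnah10), with a median of 0.32, and edgeR called none, against 0.761% of all genes. At an unadjusted p under 0.05, 5 of the 12 were higher, where the share of all genes was 4.55%. Dnah3, an inner-arm chain, came nearest, with 10.1, 10.9 and 11.7 CPM in WT and 13.8, 14.4 and 14.1 CPM in KO, and a log2 fold change of 0.37 (edgeR adjusted p = 0.1004). DESeq2's Wald test called Dnah3 (adjusted p = 0.0095) and the inner-arm gene Dnah1 (0.0454), 2 of 12, where the share of all genes was 2.51%. The inner-arm genes Dnah6, Dnah10 and Dnah12 had log2 fold changes of 0.43, 0.51 and 0.44 with unadjusted p-values of 0.0172, 0.0336 and 0.0130. Dnah7a and Dnah7c are close copies of each other, so their reads can be split between them by the estimate. By library, KO replicate 2 lay above the gene's own mean in 12 of the 12 genes, KO replicate 1 in 11 and WT replicate 2 in 0, but KO replicate 3 in 3. The 3 knockouts were thus not alike in these genes. Of the 12 genes, 11 are at least 5000 bases long, and the median deviations of these 11 from the gene's own log2 mean were 0.27, 0.21 and -0.08 in KO replicates 1 to 3. Over all genes tested of at least 5000 bases the medians had the same signs and were smaller, 0.05, 0.04 and -0.05. The part of length in the heavy chain values was not tested.

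Sensory neuron genes marked the labelled tissue, with Omp at 684 TPM. Of 11 marker lists for other cell types in the organ, the summed CPM of 5 did not overlap between the genotypes and that of 6 did, and on summed TPM all 11 overlapped. Of 7 genes of vomeronasal sensory neurons, 5 had every knockout below every wild type (8.95% of all genes) and the other 2, Gnai2 among them, had every knockout above (7.22% of all genes). Their sums were 2645 to 2836 CPM in WT and 2363 to 2558 CPM in KO, and the median log2 fold change was -0.31. Of the 7, edgeR called 1, Gnao1, lower in KO, against 0.761% of all genes. Among 13 tested genes of respiratory secretory cells, which share the non-sensory epithelium with ciliated cells, 7 had every knockout above every wild type (7.22% of all genes), and 1, the abundant Bpifa1, had every knockout below (8.95%). The sums of this list were 10816 to 12650 CPM in WT and 12984 to 15746 CPM in KO, with a median log2 fold change of 0.51, but 12109 to 12636 TPM in WT and 11538 to 15635 TPM in KO. The 7 airway basal cell genes had sums of 254 to 292 CPM in WT and 300 to 360 CPM in KO. Of them 1, Krt15, was called higher by edgeR (0.761% of all genes were called), and 2 had every knockout above every wild type (7.22%). The 8 immune cell genes had 258 to 287 and 335 to 433 CPM, and 2 had every knockout above (7.22%). Much of each difference lay in 1 gene. Krt15 had 29.3, 25.7 and 28.3 CPM in WT and 72.3, 42.9 and 52.2 CPM in KO. Lyz2, of the immune list, had 140, 124.5 and 109 CPM in WT and 252, 178 and 195 CPM in KO. The 11 main olfactory neuron genes had sums of 1378 to 1402 CPM in WT and 1136 to 1373 CPM in KO, narrowly apart. Slc17a6, 1 of the 11, was called lower by edgeR, against 0.761% of all genes. In 4 of the 11 every knockout lay below every wild type (8.95% of all genes), and the median log2 fold change was -0.10. Sums overlapped for supporting cells, glands, tuft cells, glia, cartilage and bone, and vascular cells. No gene of the 5 lists whose sums were apart was at 0 in all libraries. The part of these cell types in the values of the motile cilia genes was not tested. The targeted gene, Cnpy1, checked the labels: its log2 fold change was -2.04 (edgeR adjusted p = 1.75e-05), and every knockout lay below every wild type.

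Many of the motile cilia genes were high and low in the same mice. To describe this, the correlation of each gene was taken over the 6 libraries on log2(TMM CPM + 0.5), with the mean of the other listed genes after each had been standardized. The median Pearson r was 0.69 (median Spearman rho 0.66) for the 36 genes, against 0.01 for all genes tested. An r of at least 0.8 was reached by 10 of 36 (27.8%), 22 of 98 other motile cilia genes (22.4%), 0 of 44 genes of intraflagellar transport and primary cilia, and 3.25% of all genes tested. After each genotype's mean was subtracted the median was 0.60, and 11 of the 36 (30.6%) reached 0.8, against 5.72% of all genes. For the intraflagellar transport and primary cilia genes this step raised the median r from 0.10 to 0.47, and 5 of 44 (11.4%) then reached 0.8. These correlations are descriptions over 6 libraries that also differ in sex and depth, with no test. Without WT replicates 1 and 2, the libraries farthest from the median of the mean level, the median r of the 36 genes was 0.28. It was 0.33 for other motile cilia genes, 0.33 for intraflagellar transport and primary cilia genes and -0.002 for all genes tested. WT replicate 3 and the knockouts remained. WT replicates 1 and 2 were left out as the extremes of the same mean the r is taken with, which by itself lowers r. The fall therefore cannot show how far the relation rests on them.

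The mean standardized level of the 36 genes was -0.44, -0.95 and 0.46 in WT replicates 1 to 3 and 0.53, 0.04 and 0.36 in KO replicates 1 to 3. WT replicate 2, a female, was the lowest library for 23 of the 36 genes. The highest library was KO replicate 1, KO replicate 3 or WT replicate 3 for 9 genes each. The spread within WT was thus wider than within KO, and WT replicate 3 lay among the knockouts.

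Ccdc40 tracked the others most closely (r = 0.97), with 35.4, 32.4 and 38.7 CPM in WT and 38.5, 37.4 and 37.5 CPM in KO. Dnai1 (r = 0.93) and Zmynd10 (r = 0.92) followed, and all 3 dynein assembly genes exceeded 0.8. Over all 6 libraries Rfx3 (r = -0.57), Rsph9 (-0.71) and Tppp3 (-0.57) ran against the rest. After each genotype's mean was subtracted their r values were 0.05, -0.49 and -0.21. Drc1 and Cfap52, at 0.16 and 0.33 over all 6 libraries, then had -0.49 and -0.43. Without WT replicates 1 and 2 the r values of Rfx3, Rsph9 and Tppp3 were 0.28, 0.73 and 0.76. Over the 630 pairs of listed genes the median r was 0.44, with 12.4% of pairs at 0.8 or more and 143 pairs below 0. The 10 genes with a full X-box had a median r of 0.65 and the 19 with a promoter that lacked it 0.68. Their median log2 fold changes were 0.12 and 0.12.

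Outside the list, the genes of at least 1 CPM whose pattern was most like that of the 36, over all 6 libraries, were Phf3, Aoc1, Adgb, Dnah2, Luc7l2, Tsnaxip1, Akap14, Vmn1r-ps27, Scnn1b and Alad, with r of 0.98 to 0.99. The 100 genes of highest r held 6 other motile cilia genes (6%), and the 14728 genes ranked held 0.645%. Most genes near the top were therefore not on the cilia lists. Cfap300, the gene of the wider list called by edgeR, had an r of -0.53, and 0.09 after each genotype's mean was subtracted.

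**Figure D4:**
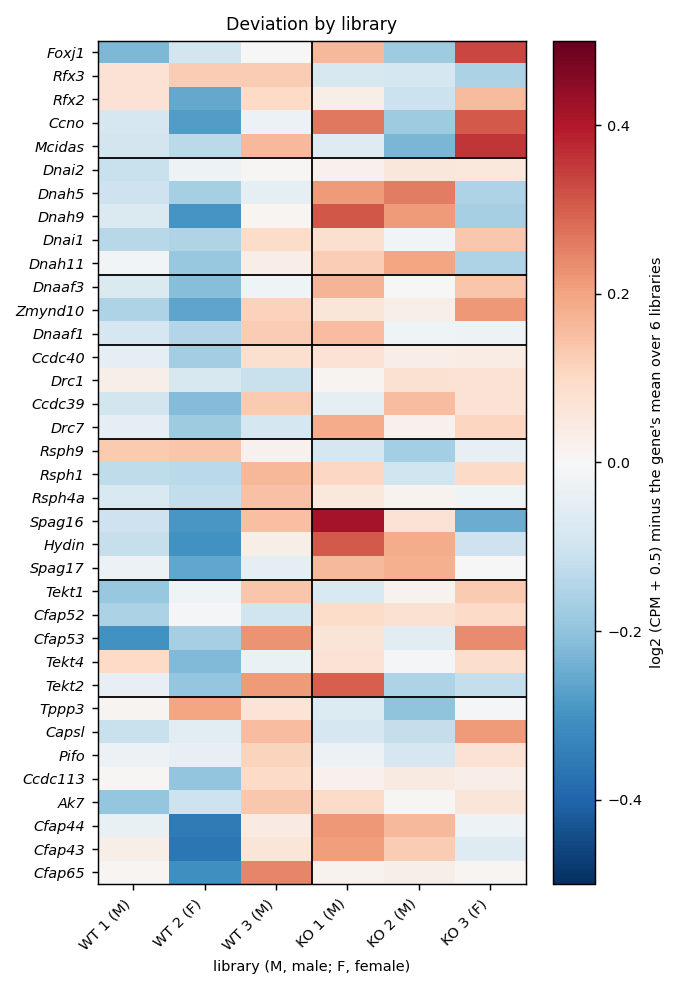
Log2 deviation of each motile cilia gene (rows, grouped by role) from its own mean in each of the 6 libraries (columns), on log2(TMM CPM + 0.5). Red is above and blue below the gene's mean. WT replicate 2 is blue for most genes, with Rfx3, Rsph9 and Tppp3 as red exceptions.

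The deviations also followed transcript length. Effective lengths of the 36 genes ran from 691 bases (Pifo) to 15428 bases (Dnah5). Across the 36 genes, which are not independent replicates, Spearman's rho of length with deviation was 0.66 in KO replicate 2, 0.44 in KO replicate 1 and 0.09 in WT replicate 1, and -0.20, -0.45 and -0.52 in WT replicate 3, WT replicate 2 and KO replicate 3. Over all genes tested the values had the same signs and were smaller, 0.15, 0.19, 0.07, -0.07, -0.10 and -0.20 in the same order. The 7 genes of at least 5000 bases (Cfap65, Spag17, Rfx3, Dnah9, Dnah11, Hydin and Dnah5) had median deviations of 0.16 and 0.19 in KO replicates 1 and 2 and -0.15 in KO replicate 3. The 14 genes under 2000 bases had 0.06, -0.07 and 0.10 in those libraries. Both females had negative rho values, as did WT replicate 3, a male, and with 1 female per genotype sex and library cannot be told apart.

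Length also went with the genotype values. The median log2 fold change was 0.22 for the 7 long genes and 0.06 for the 14 short ones, and rho of length with log2 fold change was 0.43 over the 36 genes, against 0.08 over all genes tested. Rfx3, at 8358 bases, was an exception, long and below 0. The other 2 genes with every knockout below every wild type on TMM-scaled CPM, Rsph9 and Tppp3, were among the shortest, at 750 and 915 bases. With males only, which leaves 2 libraries per genotype, the median log2 fold change of the 36 genes was 0.05. It was also 0.05 without WT replicate 2, and it was 0.17 without WT replicate 3 and 0.10 to 0.13 without any 1 of the other 4 libraries. The part of length in the genotype values was not tested.

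**Figure D5:**
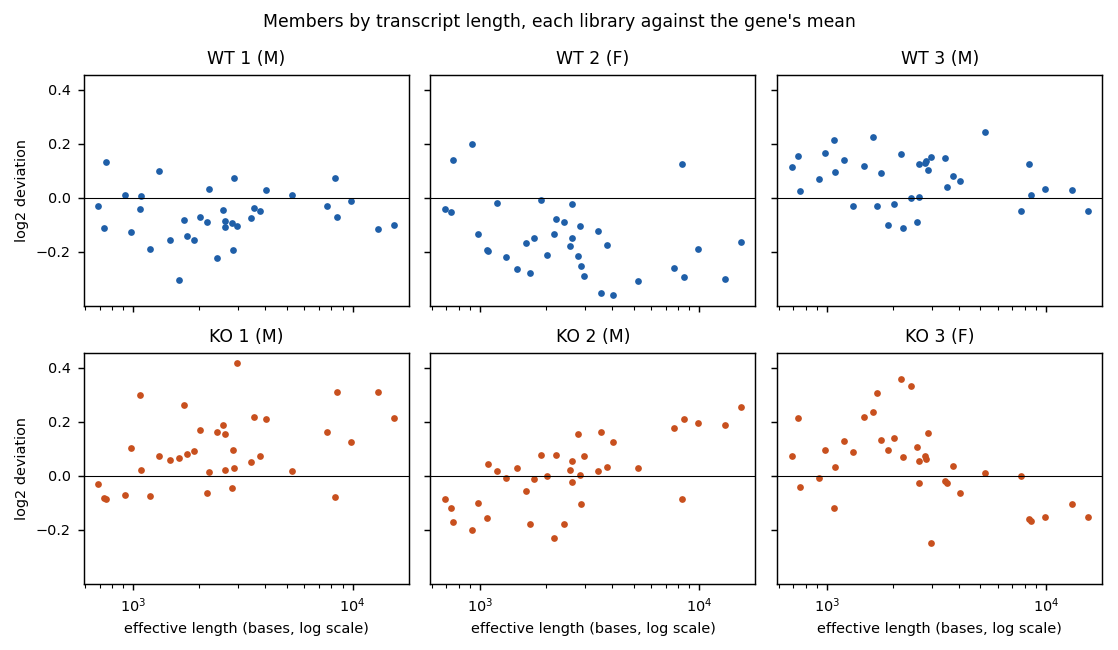
Log2 deviation (y axis) of each of the 36 genes from its own mean against effective transcript length in bases (x axis, log scale), 1 panel per library. The points rise with length in KO replicates 1 and 2 and fall in KO replicate 3 and WT replicate 2.

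Several genes are carried by more than a full-length coding transcript. For Dnah11 a transcript annotated as a target of nonsense-mediated decay held 49.97% of its TPM (35.6% to 60.98% across libraries), and the coding transcript 41.7%. For Cfap44 the coding transcript of 35 exons held 49.6%, and a short transcript of 4 exons annotated as non-stop decay held 35.0%. Dnah9 was divided between coding transcripts of 31 and 69 exons, with 45.9% and 41.5%. Rfx3 was divided between coding transcripts of 18 and 16 exons, with 57.1% ± 2.51 and 33.4% ± 3.30 (SD, n = 3) in WT and 59.0% ± 2.73 and 34.8% ± 3.58 (SD, n = 3) in KO, and the shares differed by less than the spread between mice. Tekt2's main transcript held 61.2% ± 22.3 in WT and 83.0% ± 2.84 in KO (SD, n = 3 each), at 124 to 215 reads per library. The lowest share was 36.9%, in WT replicate 1, and the other libraries had 66.1% to 86.3%.

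Some of the genes overlap others in the genome. Cfap43 shares its locus with Gsto1 (448 TPM) on the opposite strand, and Dnah11, Dnai1, Dnaaf1, Ccdc39, Rsph9 and Spag17 also overlap a coding gene on the opposite strand. Dnaaf3 and Tnni3 (0.891 TPM), and Cfap43 and Itprip (5.16 TPM), overlap on the same strand. The kit keeps strand, but whether the quantification used it is not given in the sources used here, so the values of these genes are less certain. By sequence nearly all are distinct: the share of a gene's 31-base words found in no other gene was 80.2% for Dnaaf1, 84.6% for Ccdc39 and at least 90.6% for the other 34.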

How the data were processed

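Each library had 1 deposited table of 117081 transcripts with estimated counts, TPM and effective lengths, per the file headers. Trim Galore 0.6.6, Salmon 1.9.0, DESeq2 and the builds mm10 and GRCm38 are named, without role or order, per the submitters' processing notes. The authors' TPM values are relative to all transcripts of a library, so a few abundant genes move them. The index, annotation and strand setting are not given in the sources used here. Reads that fit several transcripts are divided by estimation.

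Transcripts were joined to genes in GENCODE M21 (GRCm38), and 115942 matched. The 1139 others held 0.304% of the reads and were left out. Estimated counts were summed per gene and rounded. TPM was summed per gene.

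Genes were kept by filterByExpr and tested with edgeR 4.0.16 in R 4.3.3 (quasi-likelihood F test, TMM factors, genotype as the only term, Benjamini-Hochberg over 16679 genes, threshold 0.05). The common biological coefficient of variation was 12.8%. The SE of a log2 fold change is its size over the square root of F. Each library is 1 mouse. The fit was tested on simulated data. DESeq2 1.42.0, limma 3.58.1 and leaving out libraries were alternatives. log2 TPM used a pseudocount of 0.1. Groups, sexes and replicate numbers were taken from the labels, and the numbers were not treated as pairs.

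The 36 genes, the other gene lists and the tests were chosen with earlier results of these data known. Every listed gene is named. Of the wider and marker lists, the genes called by edgeR and some of those of highest TPM are named. The 10 genes of highest r outside the list are named as well. Dynein heavy chain genes of the wider list are also named, chosen after their values were seen. The listed genes Foxj1, Tppp3, Rsph1, Rsph4a, Cfap53, Cfap65 and Dnaaf1 had no entry in the promoter table used. Python 3.11.15 with numpy 2.4.6, pandas 2.3.3 and matplotlib 3.10.9 was used for the rest.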

Additional observations from a re-analysis of the deposited data

How the results depend on the processing

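Each result was recomputed under up to 17 alternatives. The number of genes called between genotypes (127) was 411 with DESeq2's Wald test, 76 with males only, and 69 to 96 when 1 library was left out. The number of listed motile cilia genes called (0) became 1 with DESeq2's Wald test and stayed 0 in the other fits. The number of other motile cilia genes called (1) was 0 without scaling factors, 3 with DESeq2's Wald test, 0 with males only, and 0 to 1 when 1 library was left out. The median log2 fold change of the 36 genes ranged from 0.05 to 0.17 in the fits on counts and was 0.00076 with limma on log2(TPM + 0.1). With the replicate number as a block (replicate block) 154 genes and 0 of the 36 were called, and no call on a listed gene changed. Same-numbered libraries correlated at 0.25, -0.07 and 0.29, so the numbers were not taken as pairs, and not every library correlated best with its own number. Of the 36 genes, 19 kept sign and side of the threshold in every alternative, 16 changed sign in at least 1, and Rfx3 was called by DESeq2. All sign changes were of uncalled values, and the cause was not tested.

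With males only the log2 fold change was -0.13 for Rfx2, -0.26 for Mcidas, -0.022 for Rsph1, -0.0054 for Rsph4a, -0.015 for Tekt1, -0.0041 for Tekt2, -0.0015 for Tekt4, -0.11 for Cfap65, -0.020 for Ccdc113, -0.13 for Capsl and -0.15 for Dynlrb2. With limma on log2(TPM + 0.1) it was -0.017 for Mcidas, -0.0055 for Dnai2, -0.14 for Ccdc39, -0.0076 for Rsph1, -0.042 for Rsph4a, -0.027 for Tekt1, -0.27 for Tekt2, -0.028 for Cfap43, -0.040 for Cfap44, -0.045 for Cfap65, -0.0080 for Ccdc113, -0.072 for Capsl and -0.062 for Dynlrb2. Without scaling factors it was -0.0049 for Rsph4a, -0.014 for Tekt2, -0.013 for Cfap65, -0.018 for Capsl and -0.027 for Dynlrb2. With an effective-length offset it was -0.098 for Ccdc39 and -0.18 for Tekt2. With 1 library left out it ran from -0.057 to 0.12 for Rfx2, -0.18 to 0.24 for Mcidas, -0.024 to 0.12 for Rsph4a, -0.010 to 0.34 for Spag16, -0.036 to 0.13 for Tekt1, -0.17 to 0.17 for Tekt2, -0.12 to 0.16 for Cfap65, -0.020 to 0.13 for Ccdc113, -0.077 to 0.022 for Pifo, -0.11 to 0.095 for Capsl and -0.084 to 0.13 for Dynlrb2.

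Depth limits the least abundant genes: Mcidas rested on 63 to 126 reads per library. The scaling alternatives for the summed TPM (outside the gland list, summed CPM, without Rsph9 and Tppp3) were chosen after seeing the data, and no ratio moved by more than the spread between mice.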
